A study of Mus musculus with 4 samples.

Results

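Canonical WNT signals are held in check at several levels, and the 10 genes described here act at several of them. They were examined in the surface ectoderm of the mouse face, as open chromatin around their start sites and as sites where that chromatin lost accessibility when the transcription factors AP-2α and AP-2β, encoded by Tfap2a and Tfap2b, were removed. The members were taken by name. Dkk1, Dkk2 and Dkk3 encode secreted Dickkopf proteins, and Kremen1 and Kremen2 encode transmembrane receptors of Dickkopf. Sfrp1, Sfrp2 and Wif1 encode secreted proteins that bind WNT ligands, Nkd1 encodes an intracellular antagonist of Dishevelled, and Notum encodes a secreted enzyme that removes the lipid WNT needs for activity. A peak belonged to a gene when its centre lay within 100 kb of the start site of the gene's principal transcript. This gave 128 of the 65467 control peaks and 2 of the 3103 AP-2-dependent regions.

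A WNT ligand binds a Frizzled receptor together with Lrp5 or Lrp6, β-catenin then builds up, and TCF/LEF proteins carry it to target genes. DKK1 and DKK2 bind Lrp5 and Lrp6, and the Kremen receptors take part in clearing these co-receptors from the cell surface, while DKK3 is not known as a typical antagonist of that kind. Nkd1 and Notum are themselves targets of the pathway in many tissues, so that signalling raises its own inhibitors. In the embryonic face the ectoderm is a source of WNT ligands for the neural crest mesenchyme beneath it.

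ATAC-seq, which marks open DNA by the insertions of a transposase, was carried out at embryonic day 11.5 on facial ectoderm dissected from the mesenchyme after enzyme treatment. The EDKO group comprised 2 libraries that carried Crect and were Tfap2a flox/flox as well as Tfap2b flox/flox. The control group comprised 2 libraries from littermates without Crect that were Tfap2a flox/+ as well as Tfap2b flox/+. Each library was made from 50000 cells. Crect is a Cre transgene driven by an enhancer of Tfap2a that acts in the embryonic ectoderm, and a wider pattern of recombination has been reported for it, so the study passed it through tested sires. The control embryos carried 1 floxed copy of each gene and no Cre, so the effect of Cre itself and that of the AP-2 genes cannot be told apart. The labels do not say whether the libraries came from separate litters.

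The authors called peaks once on both control libraries together, which gave the control peaks, and once on the control libraries with the EDKO libraries as background, which gave the regions more accessible in control than in EDKO ectoderm. The latter are named AP-2-dependent regions below, as a name for that list. Each peak carries a −log10 p at its summit, which is a measure of strength within its own list. Neither list gives a value per library, so no error between replicates, no test of genotype and no read depth are given, and coverage tracks were not used here. The name of the deposited control list mentions replicates 1 and 3, whereas the labels number the control libraries 1 and 2, so which libraries went into it rests on the study's description. Shares of peaks are given with a 95% Wilson interval, which covers counting error only and treats peaks as independent, although neighbouring peaks share a locus. The start sites of 10 of 10 surface ectoderm markers were open (summit −log10 p from 6.77 for Krt8 to 12.4 for Esrp1). Those of 7 of 8 mesenchyme markers were also open, with a lower median (5.69 against 10.2) and values that overlap those of the ectoderm markers (3.27 for Prrx1 to 7.96 for Col1a1; Pdgfra was not covered). What mesenchyme in the samples adds to the members' peaks was not tested. Both targeted genes held an AP-2-dependent region within the gene body, 1 in Tfap2a (7 control peaks) and 1 in Tfap2b (13 control peaks). Cre removes floxed exons of both genes in EDKO ectoderm, where missing DNA and lower accessibility cannot be told apart. Whether these regions lie there was not examined.

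The sequences below are examples picked from these loci by the rules given next, and they do not represent all member peaks. They comprise the 2 AP-2-dependent regions, the strongest control peak of any member away from start sites, which was not called as AP-2-dependent, and the strongest such peak with GCCNNNGGC at its summit and a member as its nearest gene, which was not called either. Each was read from the forward strand of GRCm38. Capitals mark matches, on either strand, to strings that stand for known factors: GCCNNNGGC (AP-2), the same GCC and GGC with 4 bases between them (AP-2), CCTNAGG (AP-2 core), CTTTGAA or CTTTGAT (TCF/LEF) and GGAATG (TEAD). These strings can overlap. The Kremen1 region is shown by its first 300 bases (chr11:5314346-5314645) and the Dkk3 region by 300 bases that hold all of its matches (chr7:112213086-112213385). The others are the 201 bases around the summits of a peak in Kremen1 (chr11:5239829-5240029) and of a peak upstream of Nkd1 (chr8:88454076-88454276).
Kremen1 region: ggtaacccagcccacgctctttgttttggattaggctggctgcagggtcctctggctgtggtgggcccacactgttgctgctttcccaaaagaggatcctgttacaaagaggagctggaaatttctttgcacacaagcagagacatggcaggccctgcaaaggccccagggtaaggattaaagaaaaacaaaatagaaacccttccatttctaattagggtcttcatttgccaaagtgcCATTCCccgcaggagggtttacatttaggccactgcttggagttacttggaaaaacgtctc
Dkk3 region: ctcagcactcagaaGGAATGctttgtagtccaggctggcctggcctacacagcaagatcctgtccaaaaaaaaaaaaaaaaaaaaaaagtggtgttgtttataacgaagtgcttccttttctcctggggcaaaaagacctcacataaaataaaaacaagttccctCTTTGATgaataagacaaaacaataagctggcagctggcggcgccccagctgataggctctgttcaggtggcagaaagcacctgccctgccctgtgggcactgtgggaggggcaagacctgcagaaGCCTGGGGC
Kremen1 intron 2 peak: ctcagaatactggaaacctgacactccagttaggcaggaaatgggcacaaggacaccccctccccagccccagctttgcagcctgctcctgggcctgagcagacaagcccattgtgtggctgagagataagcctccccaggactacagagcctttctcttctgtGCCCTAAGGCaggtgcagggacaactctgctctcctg
Nkd1 upstream peak: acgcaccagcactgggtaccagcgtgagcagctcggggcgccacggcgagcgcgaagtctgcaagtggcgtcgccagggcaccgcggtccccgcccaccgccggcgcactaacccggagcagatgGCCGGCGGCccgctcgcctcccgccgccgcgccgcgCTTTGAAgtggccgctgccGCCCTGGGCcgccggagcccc

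The region nearest to Kremen1 holds 1 TEAD string, read on the reverse strand, and no other match. The Dkk3 region holds 1 TEAD, 1 TCF/LEF and 1 AP-2 string, in that order. In the Kremen1 intron 2 peak the capitals are a match of the 4-base form, which contains a match of the AP-2 core. The Nkd1 peak has 2 AP-2 strings on either side of a TCF/LEF string. A match describes these letters and is not a binding site that was measured. The Dkk3 window was chosen for its matches, so their number in it is not to be read against other windows. Among all regions at least 300 bases long, the 300 bases around the summit held the TEAD string in 26.0%, a TCF/LEF string in 15.5% and the AP-2 string GCCNNNGGC in 26.3%. In the 201 bases around the summits of all control peaks, the AP-2 string was found in 14.4%, its 4-base form in 12.8%, the AP-2 core in 12.9% and a TCF/LEF string in 8.30%.

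Every one of the 10 inhibitor genes had open chromatin over its start site in control ectoderm, compared with 61.6% of all 21853 protein-coding genes. Of these 10 peaks, 0 overlapped an AP-2-dependent region, and in the whole list only 1.52% of peaks within 5 kb of a protein-coding start site did. The 3 Dickkopf genes had the weakest ones, with a summit −log10 p of 3.67 at Dkk3, 4.34 at Dkk2 and 6.31 at Dkk1. These stand at the 1.1, 3.3 and 14.4 percentiles of the 13455 open start sites, whose median was 9.71 with quartiles of 7.58 and 11.6. Notum followed with 7.47, also under the lower quartile. The other 6 genes lay between the quartiles, with 9.12 at Kremen2, 9.18 at Nkd1, 9.63 at Sfrp2, 10.0 at Wif1, 10.3 at Kremen1 and 10.6 at Sfrp1. Neighbours in this order cannot be told apart, since no error between libraries is known.

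**Figure D1:**
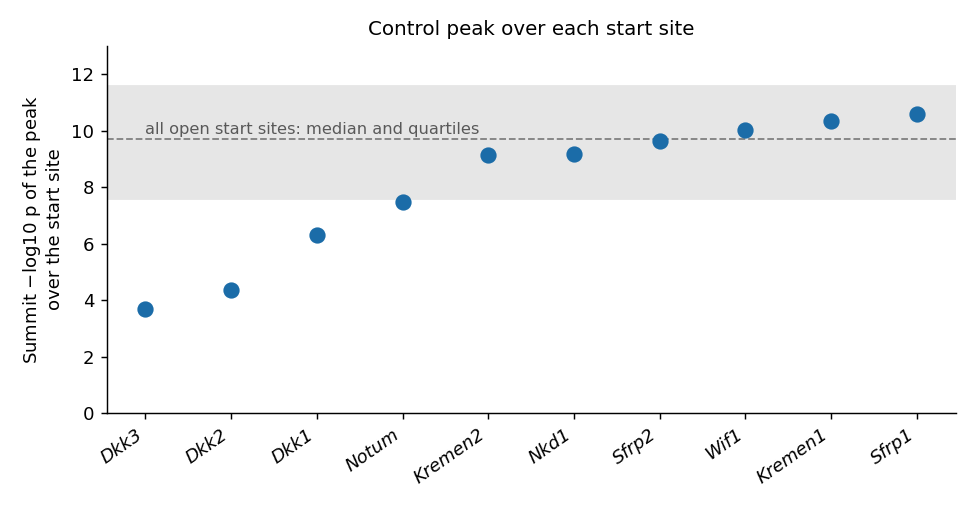
Each point is the summit −log10 p (linear axis from 0) of the control peak that covers the start site of the named gene, from the call on both control libraries, so there are no error bars. The grey band spans the quartiles of all 13455 open start sites (7.58 to 11.6) and the dashed line is their median of 9.71; Dkk3, Dkk2, Dkk1 and Notum lie below the band.

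The peaks over the start sites also differed in width. That of Dkk3 was only 321 bp wide (chr7:112158993-112159313), while those of Dkk2 and Dkk1 spanned 1158 bp (chr3:132085222-132086379) and 1501 bp (chr19:30548397-30549897). Those of the other 7 genes ranged from 1564 bp at Wif1 to 3579 bp at Kremen2. At Dkk3 a stronger peak lay just inside the gene, in intron 2 with its centre 0.836 kb downstream of the start site (1321 bp, −log10 p 5.86). The peak at Kremen2 shares its place with a non-coding gene, 9530082P21Rik, in whose exon the summit fell, so it cannot be assigned to Kremen2 alone. The base composition of the 250 bases before the start site varied too. GC content was lowest at Dkk1 (44.8%, 20.2 percentile of all genes) and highest at Kremen1 (82.0%), Nkd1 (79.2%) and Notum (76.0%), all above the 96 percentile. CpG dinucleotides were present at 0.239 of the number expected from the bases at Dkk1 and at 1.00 at Sfrp1, where the median of open start sites was 0.731. In these 250 bases GCCNNNGGC occurred in 2 of the 10 genes, Kremen1 and Notum, against 21% of all open start sites. A TCF/LEF string occurred at 1 gene, Nkd1, against 4.82%. The 4-base form occurred in 2 genes, against 20.5%. The AP-2 core and the TEAD string were found in 0 of the 10, against 9.46% and 10.0% of open start sites.

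The surroundings of the genes differed as well. Kremen2 had 26 control peaks within 100 kb and Notum 25, at the 97.6 and 96.9 percentiles of all genes, but these windows are crowded with 15 and 16 other start sites. Only 3 of the 26 and 1 of the 25 peaks had the member as the nearest start site. Kremen1 had 20 peaks (91.4 percentile) with no other start site in its window, and 13 of them were nearest to Kremen1. Dkk3 had 11 peaks, Sfrp1 and Nkd1 10 each, Sfrp2 9, Dkk2 7, Wif1 6 and Dkk1 4, where the median of all genes was 8 (quartiles 4 and 13). For Dkk1, Dkk2 and Sfrp1 every peak in the window was nearest to the gene itself. In total the member was the nearest gene for 64 of the 128 peaks. These 64 had a median −log10 p of 4.46, and 22 of them lay within 5 kb of a start site. The 64 nearer to another gene had a median of 6.23, and 38 of them lay that close. The part of position in this difference in strength was not tested.

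**Figure D2:**
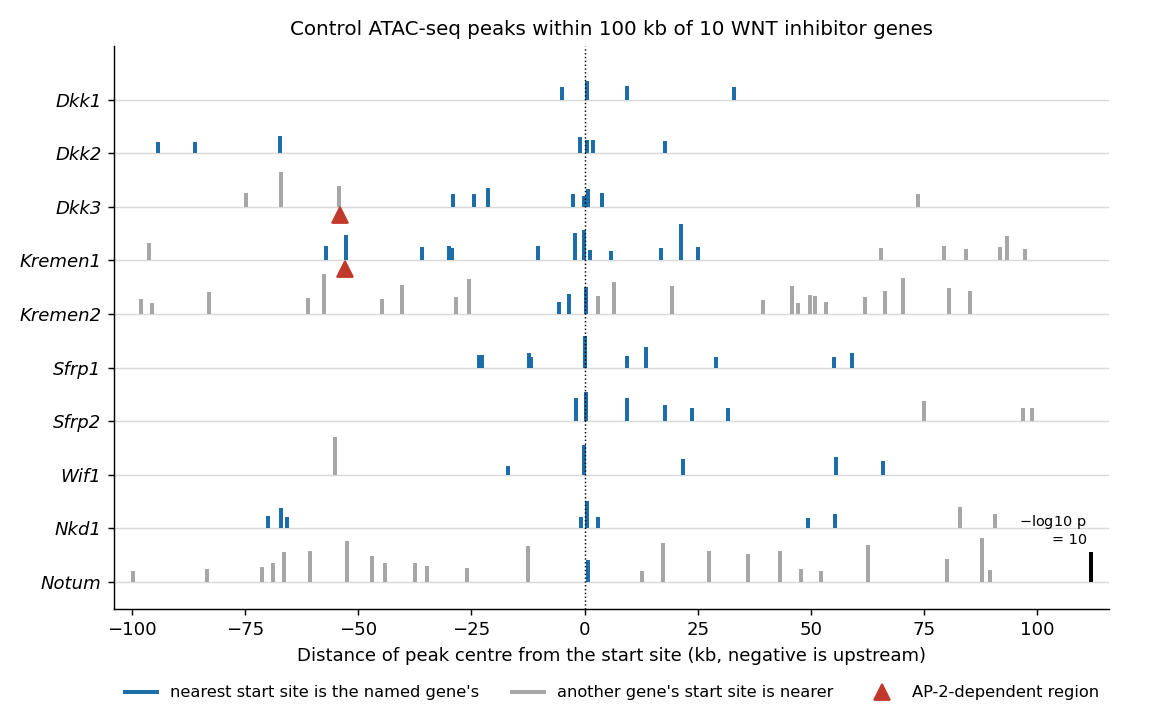
Each row shows the control peaks within 100 kb of one gene by the distance of the centre from its start site (kb, negative is upstream). The height of a bar is the summit −log10 p on the scale of the black bar (10), blue bars have the named gene as nearest start site, grey bars another gene, and red triangles are the 2 AP-2-dependent regions, at −52.9 kb of Kremen1 and −54.1 kb of Dkk3.

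By nearest start site alone, Kremen1 had the most peaks of the 10 genes, 13 against 10 for Sfrp1. These 13 include the 5 within Znrf3 described below, so the order rests on that rule. A wide peak in its intron 2, 21.4 kb downstream of the start site (chr11:5239160-5241160, 2001 bp), reached a −log10 p of 12.2, above the 10.3 of the start site itself and at the 96.4 percentile of the control list. A further peak 2.16 kb upstream reached 9.19 (chr11:5262935-5264506). Neither overlapped an AP-2-dependent region. Upstream, 5 peaks with Kremen1 as the nearest start site fell in intron 2 of Znrf3, which encodes a membrane ubiquitin ligase that removes Frizzled receptors and is itself a WNT inhibitor. They ran from 29.3 to 57.2 kb from Kremen1, with −log10 p values of 4.29, 4.96, 4.36, 8.52 and 4.77 from the nearest to the farthest. The distance to the nearest start site thus gives to Kremen1 peaks that lie within another inhibitor gene. Around the secreted ligand-binding genes, Sfrp1 had 9 peaks of its own beyond 5 kb, the strongest in intron 2 at 13.7 kb (6.76, chr8:23424581-23425799). Sfrp2 had a run of 4 downstream peaks at 9.37, 17.8, 23.7 and 31.7 kb (7.64, 5.45, 4.37 and 4.55), of which the first 3 fell in the non-coding gene Gm26771. Wif1 had peaks in intron 2 at 21.6 kb (5.26) and in intron 6 at 55.6 kb (6.09). Upstream of Nkd1, 3 peaks lay close together at 65.8, 67.0 and 70.0 kb, with values of 3.96, 6.89 and 4.18, and all 3 held the AP-2 string. Dkk2 had 3 far upstream peaks, at 67.4, 86.1 and 94.3 kb (5.66, 3.82 and 3.71), within the non-coding gene Gm29865, and Dkk1 had the fewest, with 1 at 9.31 kb (4.43) and 1 at 32.9 kb (4.28) downstream besides 2 within 5 kb. Not one of the peaks named in this paragraph for Sfrp1, Sfrp2, Wif1, Nkd1, Dkk1 and Dkk2 overlapped an AP-2-dependent region.

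The comparison of control with EDKO ectoderm asks which of these open sites lost accessibility without AP-2α and AP-2β. Of the 128 control peaks, 2 overlapped an AP-2-dependent region, or 1.56% (95% Wilson interval 0.430 to 5.52), while 4.48% of all control peaks did. The crowded windows of Kremen2 and Notum supplied 51 of the 128 peaks and none of the overlaps, and without them the share was 2 of 77, or 2.60%. The interval of the 128 peaks takes in the value for all control peaks, so fewer overlaps than elsewhere were not shown. By gene, 2 of 10 members, Dkk3 and Kremen1, had a region within 100 kb. At this limit that is about the same share as the 20.2% of all protein-coding genes. The count was 0 genes at 50 kb and 4 at 250 kb, for which no share of all genes is given. It was 1 gene when the member had to be the nearest start site, or when the area under the curve had to reach 500. No share of all genes is given at these 2 settings either, so these counts are not to be read against the 20.2%. The Dkk and Kremen genes together had 2 of 68 peaks with a region. There was none among the 25 peaks of Sfrp1, Sfrp2 and Wif1 and none among the 35 of Nkd1 and Notum, where counts of 0 allow shares of up to 12.0% and 8.57%. This upper limit, used for every share of 0, is 3 counts of the total and not a Wilson limit. The difference between these groups of peaks was not tested. The share depends on where peaks lie, since 1.52% of all control peaks within 5 kb of a protein-coding start site and 5.75% of those farther away overlapped a region. Of the members' peaks, 60 lay within 5 kb of some start site and 0 of them overlapped, which allows up to 5.00%. Among the 68 distal peaks 2 did, or 2.94% (0.810 to 10.1).

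**Figure D3:**
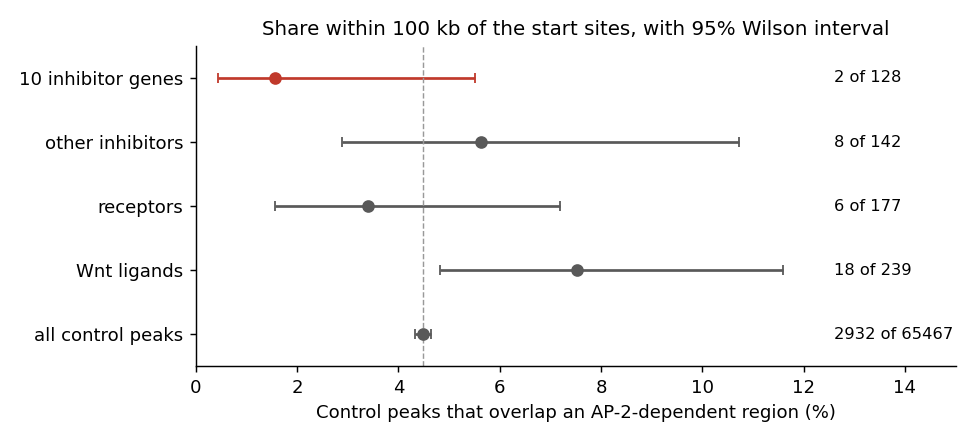
Share of control peaks within 100 kb of the start sites of each gene group that overlap an AP-2-dependent region by at least 1 bp (%), with 95% Wilson intervals as bars and the counts at the right. The 10 inhibitor genes have a share of 1.56% (2.60% without the windows of Kremen2 and Notum, not drawn), and their interval reaches past the share of all control peaks (4.48%, dashed line).

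Strong distal peaks overlapped an AP-2-dependent region more often in the list as a whole. Both lists were called from the control libraries, so the strength of a peak and the call of a region are not independent. How much of the rise below comes from this was not tested. In 4 equal bins of summit strength, set over all control peaks, the share rose from 1.06% through 3.17% and 7.85% to 18.5% of all distal control peaks. In the same bins the members had 0 of 16, 0 of 31, 1 of 14 and 1 of 7 distal peaks with a region. The 2 peaks that overlapped were therefore among the 21 stronger ones, and 6 of the 7 in the top bin, with the Kremen1 intron 2 peak the strongest, did not overlap a region.

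Near Kremen1 the AP-2-dependent region lay 52.9 kb upstream of the start site, in intron 2 of Znrf3 (chr11:5314346-5314659, 314 bp). Its −log10 p of 5.54 in the comparison with EDKO was at the 76.2 percentile of all regions, and its area under the curve, a Genrich value that sums significance above a threshold over the peak, was 502 (63.8 percentile). It sat inside the control peak chr11:5314021-5314751, the one with a −log10 p of 8.52, filled 43.0% of it and had its summit at the same base. Kremen1 was the nearest start site by the principal transcripts, but Znrf3 is the host gene and has 2 regions of its own within 100 kb. No AP-2 string of any of the 3 forms was found in this region, and among the 1547 regions within 25% of its length 26.8% held GCCNNNGGC, 22.4% its 4-base form and 37.3% the AP-2 core. The TEAD string lay 141 to 146 bp to the right of the summit, and 29.3% of regions of this length held it.

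Near Dkk3 the region lay 54.1 kb upstream of the start site, between genes (chr7:112212865-112213545, 681 bp). It was 12.7 kb upstream of Mical2, which encodes an enzyme that oxidises actin and is the nearer gene, so its assignment to Dkk3 rests on the 100 kb limit alone. The region was wide (91.0 percentile) but weak, with a −log10 p of 3.29 at the 1.7 percentile of all regions and an area under the curve of 377 (47.2 percentile). It filled 57.8% of the control peak chr7:112212641-112213819 (−log10 p 6.95) and again shared its summit. To the right of the summit lay the TEAD string at 18 to 23 bp, the TCF/LEF string at 169 to 175 bp and GCCNNNGGC at 295 to 303 bp. Of the 517 regions within 25% of its length, 39.3% held the TEAD, 29.2% a TCF/LEF and 37.3% the GCCNNNGGC string. By the masking of the reference, 27.6% of the Dkk3 region was repeat sequence, the TEAD string included, whereas 9.24% of the Kremen1 region was, and the median of all regions was 8.16%. Both regions were nevertheless single-copy, with a median of 1 occurrence of their 31-base words in the assembly.

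**Figure D4:**
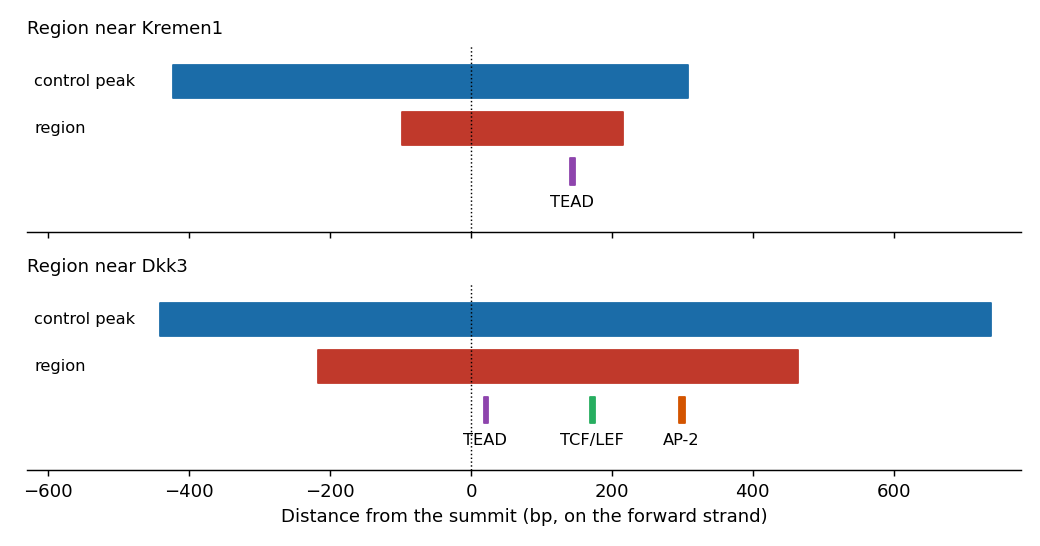
The control peak (blue), the AP-2-dependent region within it (red) and the matches to the TEAD, TCF/LEF and AP-2 strings (short bars) for the region near Kremen1 (top) and near Dkk3 (bottom), by distance in bp from the shared summit on the forward strand. The Kremen1 region holds 1 match and the Dkk3 region 3, all to the right of the summit.

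The limit of 100 kb lay in a gap for the regions, as the next one after Dkk3 at 54.1 kb was 110 kb downstream of Sfrp2, nearest to Tlr2. The control peaks closest to the limit were 99.7 kb from Notum inside it and 100.3 kb from Nkd1 outside it. Farther out, Kremen1 had regions at 166 kb (in intron 1 of Znrf3, −log10 p 4.62) and 189 kb upstream (−log10 p 8.5, 6.09 kb upstream of Znrf3), and Wif1 had them at 209 kb downstream and 246 kb upstream. For the other genes the nearest region was 280 kb from Nkd1, 333 kb from Dkk2, 485 kb from Notum, 595 kb from Sfrp1, 654 kb from Dkk1 and 1811 kb from Kremen2. Among all genes the median was 334 kb with quartiles of 129 and 778 kb. Kremen1 (11.5 percentile) and Dkk3 (11.8) were thus close to a region, while Kremen2 (92.9) was far from any, although its window held the most control peaks of the 10.

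AP-2 strings were also found at member peaks that were not AP-2-dependent. At the summits, within 100 bp on either side, GCCNNNGGC occurred in 20 of the 128 peaks, or 15.6% (10.3 to 22.9), near the 14.4% of all control peaks. The AP-2 core occurred in 21 (16.4%, against 12.9%), the TEAD string in 26 (20.3%, against 17.9%) and a TCF/LEF string in 15 (11.7%, 7.23 to 18.4, against 8.30%). The 4-base form was the one string whose interval lay above the whole list, with 29 peaks or 22.7% (16.3 to 30.6) against 12.8%. Among distal peaks alone it was found in 14 of 68, or 20.6% (12.7 to 31.6), against 10.3%, and among those closer to a start site in 15 of 60, or 25% (15.8 to 37.2), against 18.7%. Of the 29 peaks, 15 lay in the windows of Kremen2 and Notum, and without these windows 14 of 77 peaks held the form, or 18.2% (11.2 to 28.2), an interval that includes the 12.8%. This was 1 of 5 strings looked at, and no test was made of it. Over whole peaks GCCNNNGGC was present in 56, or 43.8% (35.5 to 52.4), against 32.4% of all, the 4-base form in 47.7% (39.2 to 56.3) against 29.0% and a TCF/LEF string in 33.6% (26.0 to 42.1) against 23.2%. The AP-2 core was present in 39.1% (31 to 47.7) against 31.3%, and the TEAD string in 43.8% (35.5 to 52.4) against 39.3%, both with intervals that include the value of all peaks. Within 5 kb of a start site GCCNNNGGC was present in 60% of member peaks (47.4 to 71.4), against 53.3% of all. Among distal peaks it was in 29.4% (19.9 to 41.1), against 23.4%, so each interval includes the value of all. The distal intervals of the 4-base form (27.6 to 50.1, against 19.9%) and TCF/LEF (26.3 to 48.6, against 22.6%) did not. Without the Kremen2 and Notum windows the GCCNNNGGC share was 35.1%. The members' peaks were also wider (median 766 against 560 bp), and the parts of width and position in these shares were not tested. GCCNNNGGC was found in 18 of the 25 peaks around Notum, 6 of 10 around Nkd1, 5 of 10 around Sfrp1, 5 of 11 around Dkk3, 4 of 9 around Sfrp2 and 11 of 26 around Kremen2. It was found in 5 of 20 around Kremen1, 1 of 6 around Wif1, 1 of 7 around Dkk2 and 0 of 4 around Dkk1. The share was 54.7% for the 64 peaks nearer to another gene, of which 38 lay within 5 kb of a start site. It was 32.8% for the 64 nearest to a member, of which 22 did, and the part of position in this difference was not tested.

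Of the member peaks with a string at the summit, 0 of 20 with GCCNNNGGC, 0 of 29 with its 4-base form and 0 of 21 with the AP-2 core overlapped an AP-2-dependent region, where counts of 0 allow up to 15.0%, 10.3% and 14.3%. In the whole list 7.03% of peaks with the first string overlapped a region and 4.04% of those without it. For the 4-base form the shares were 6.13% and 4.23%, and for the AP-2 core 10.8% and 3.53%. The numbers near the inhibitor genes are too small to show a difference from these. The Nkd1 upstream peak printed above is an example, with 2 AP-2 strings and a TCF/LEF string within 100 bp of its summit and no region within 280 kb of the gene.

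**Figure D5:**
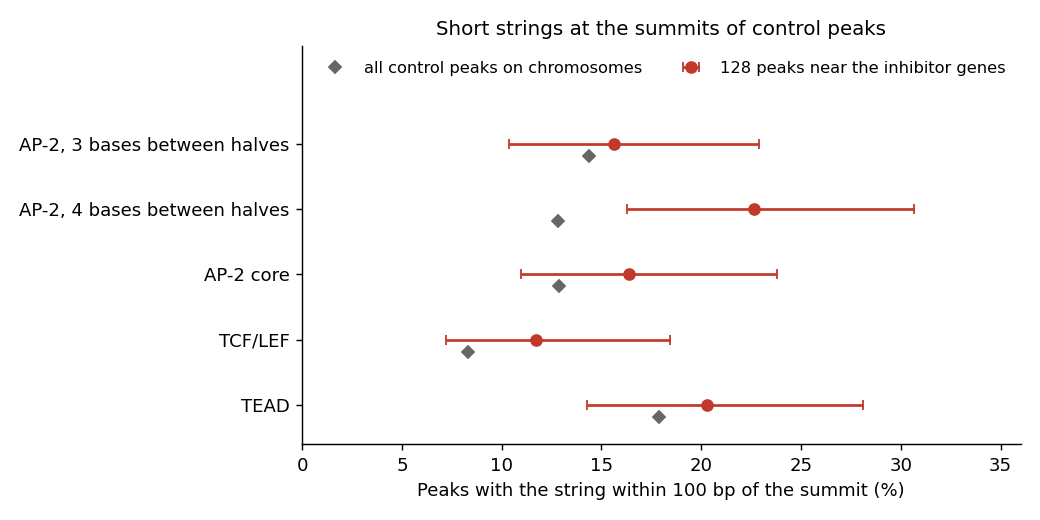
Share of control peaks with each string within 100 bp of the summit (%), for the 128 peaks near the inhibitor genes (red, with 95% Wilson intervals) and for all control peaks on chromosomes (grey diamonds). The interval of the 4-base AP-2 form (16.3 to 30.6%) lies above the value of all peaks (12.8%), and each of the other 4 intervals includes the value of all peaks for its string.

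Other genes of the pathway stood beside these 10 as follows. Among 13 further inhibitors, 5 had an AP-2-dependent region within 100 kb, namely Znrf3 and Rnf43, which encode ligases that remove Frizzled, Axin2, a scaffold of the complex that degrades β-catenin, Sostdc1, a secreted antagonist of WNT and BMP, and Dkk4. Sostdc1 had 3 regions, the nearest 0.497 kb upstream of its start site, and the nearest ones of Rnf43 and Znrf3 lay 5.85 and 6.09 kb upstream. That of Dkk4 was 6.51 kb upstream and that of Axin2 91.5 kb downstream, near the limit. Of their 142 control peaks, 8 overlapped a region, or 5.63% (2.88 to 10.7). Of the 19 Wnt ligand genes 13 had a region (20.2% of all genes did), but neighbouring ligand genes such as Wnt3 and Wnt9b share peaks and regions, so the 13 are not separate. Of their 239 peaks, counted once each, 18 overlapped, or 7.53% (4.82 to 11.6). Of 15 receptor genes Fzd3, Fzd6, Fzd8, Fzd10 and Ryk had a region, with 6 of 177 peaks, or 3.39% (1.56 to 7.20). These groups stand beside the 1.56% (0.430 to 5.52) of the 10 inhibitor genes, and the differences between them were not tested. The windows of Kremen1 and Znrf3 overlap, and 1 region near Kremen1 lies in Znrf3, so the groups are not fully separate.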

How the data were processed

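Surface ectoderm of E11.5 mouse faces was assayed by ATAC-seq in 2 control and 2 EDKO libraries. The authors trimmed reads with NGmerge, aligned them to mm10 with bowtie2 (--very-sensitive, up to 10 placements of a read pair) and called peaks with Genrich 0.5, removing PCR duplicates and the mitochondrial chromosome. They deposited for each peak a score (1000 times the area under the curve over the width, with a cap of 1000), that area as a further score, an unadjusted −log10 p at the summit and the offset of the summit. These values were not compared between the lists. No read counts were used, so the depth behind a peak is unknown.

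Start sites are those of the principal transcripts of GENCODE (mouse release 21), on GRCm38. Overlap was counted from 1 bp. Strings were matched on both strands of the reference, and sequence came from the RefSeq copy of GRCm38. Peaks on scaffolds (169 control peaks and 31 regions) were counted but given no gene or sequence. Analyses used Python 3.11.15, pandas 2.3.3, pysam 0.24.0 and samtools 1.23.1. On simulated data, overlaps differed from those of bedtools 2.31.1 at 0 of 300 intervals, and nearest start sites from a direct search at 0 of 300. No test was run, because each list is a single call on combined libraries and peaks are not replicates.

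The members, the gene lists and the strings were chosen with earlier results of these data known. All 10 members were described. Of other genes, those named are the nearest gene to a region, the host gene of a peak, listed pathway genes with a region within 100 kb, listed cell type markers, and genes given as background. Coverage tracks, reads and regions that gained accessibility were not analysed here, and the result of 1 further marker list is not reported here. Alternatives covered the distance limit, the start site, the nearest gene, peak strength, copy number, the overlap and the string.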

Additional observations from a re-analysis of the deposited data

How the results depend on the processing

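No paired analysis was possible because the lists used here pool the libraries of a group, and for the same reason no library could be left out of them. For 8 results 48 alternative values were computed, 5 of them with a setting added after the data were seen, and 29 stayed within 1.5 times a count or inside the 95% interval of a share or median. With a limit of 50 kb no region remained (0 regions, 0 genes, 0% of 74 peaks, which allows up to 4.05%, as 3 counts of the total). With 250 kb there were 7 regions at 4 genes, and 7 of 262 peaks overlapped one (2.67%). A wider limit takes in more regions for any gene, and no share of all genes is given here for any alternative setting. Keeping only peaks whose nearest start site is the member's left 1 region at 1 gene, 64 peaks, an AP-2 string share of 32.8% and a median −log10 p of 4.46. When the area under the curve had to reach 500, 1 region at 1 gene (Kremen1) was left and the median was 6.37. Of the peaks, 1 of 90 overlapped (1.11%), against 2.46% of all control peaks at this setting. The number of open start sites went from 10 to 9, without Dkk3. At least 50% mutual overlap left 1 peak (0.781%, against 2.87% of all control peaks). The string share was 15.6% within 100 bp of the summit. Without the windows of Kremen2 and Notum (added later) there were 77 peaks, an overlap share of 2.60% (2 peaks), a string share of 35.1% and a median of 4.55. The most upstream start sites and single-copy peaks moved no result. The number of regions near these genes is too small for any order between them.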
